A study of Mus musculus with 32 samples.

Results

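Bisphenol A (BPA) was set against its analogs bisphenol F (BPF) and bisphenol S (BPS) in differentiating mouse embryoid bodies (EBs, floating aggregates that form cells of all germ layers). The comparison took the 12 BPA, BPF and BPS libraries of EB days 6, 9, 12 and 20, out of 32 libraries in all. These were 4 BPA libraries against 8 analog libraries, 4 of BPF and 4 of BPS. All came from J1 mouse embryonic stem cells (a line of strain 129S4/SvJae) kept in 100 nM of 1 compound. The 4 libraries of the same days that received the solvent dimethyl sulfoxide (DMSO) stood outside the fit and give the level without bisphenol. Each day and treatment had 1 library, and the labels name no replicate cultures. They do not say whether the 4 days of a compound belong to 1 culture run, so p-values measure only the spread between these samples, with the day as a block.

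Bisphenols are pairs of phenol rings joined by a bridge, which is an isopropylidene group in BPA, a methylene group in BPF and a sulfonyl group in BPS. BPA is used in plastics and resins and binds estrogen receptors weakly, and BPF and BPS are used in its place. In EBs, mesoderm gives beating heart muscle, vessels and blood, ectoderm gives neurons and surface epithelium, and endoderm gives visceral and gut-like tissue. In bulk RNA, fewer cells of a type and less RNA per cell cannot be told apart.

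Promoters of heart muscle genes are shown, since these genes were among those with the widest gap between BPA and its analogs. The CArG box, the letters that serum response factor binds in many muscle promoters, was searched on both strands as CC, any 6 of A or T, then GG. Among 20 tested genes of the cardiac sarcomere list with a promoter window of 300 bases in RefSeq (build GRCm38.p6), 6 held it, or 30%, against 1.60% of 11368 tested genes with a window and 1.63% of all 32851 windows. Shown 5′ to 3′ are the 200 bases before the start of Myl7 (atrial myosin light chain; minus strand, chr11:5898783-5898982), Actc1 (cardiac actin; minus strand, chr2:114052876-114053075) and Myl3 (a ventricular myosin light chain; plus strand, chr9:110763478-110763677). Capitals mark the CArG box, which began 61, 47 and 85 bases before the start.
Myl7: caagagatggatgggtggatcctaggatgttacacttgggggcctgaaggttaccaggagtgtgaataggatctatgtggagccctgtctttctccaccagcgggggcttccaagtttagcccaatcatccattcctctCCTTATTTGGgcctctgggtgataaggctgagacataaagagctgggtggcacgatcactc
Actc1: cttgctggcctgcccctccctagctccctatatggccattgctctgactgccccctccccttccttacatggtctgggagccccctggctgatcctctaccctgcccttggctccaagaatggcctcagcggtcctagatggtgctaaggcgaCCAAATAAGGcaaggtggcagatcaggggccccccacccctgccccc
Myl3: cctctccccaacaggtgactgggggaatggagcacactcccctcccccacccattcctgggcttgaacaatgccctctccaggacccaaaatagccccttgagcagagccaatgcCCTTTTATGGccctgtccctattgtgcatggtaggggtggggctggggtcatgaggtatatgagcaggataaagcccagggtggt
All 3 genes were lower with BPA than with the analogs. The other 3 holders were Ldb3, which was also lower, and Nebl and Myom1, which did not pass for BPA against both analogs. Among the genes called below that had a window, 11 of 192 lower genes (5.73%) and 2 of 57 higher genes (3.51%) held a CArG box. The 11 include Myl7, Actc1, Myl3 and Ldb3. Of 16 immediate early and serum response factor genes with a window 4 held it (25%), and of 13 smooth muscle contractile genes 1 (7.69%). For BPA against both analogs 1 of 21 tested members of the former list was called, and 0 of 16 of the latter. A link between the box and the gap was not tested. The palindromic estrogen response element, GGTCANNNTGACC, occurred in 0 of those 192 and 0 of those 57 windows, and in 2 of the 11368 tested genes with a window (0.0176%). At so low a share, sets of this size would mostly hold 0 matches, so these counts cannot tell the sets apart. These matches describe letters in a window and not binding.

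With BPA, genes of heart muscle, globins, vessel lining and surface epithelium ran lower than with BPF and BPS, and genes of neurons ran slightly higher. Of 14426 genes tested, 349 passed an adjusted p of 0.05 (2.42%), with 274 lower (1.90%) and 75 higher (0.520%) in BPA. Adjusted p-values are from edgeR's quasi-likelihood test with Benjamini-Hochberg adjustment over all genes tested. The lower genes had a median log2 difference of -0.60 and the higher genes of 0.31, against 0.01 over all genes. At an absolute log2 difference of 1 or more there were 61 lower and 0 higher genes. The count depended on the fit: it was 70 without the BPA library of day 12, 191 without that of day 9 and 227 without that of day 20. It was 111 by limma on log2(FPKM + 1), and 5 with the DMSO libraries added, where the common biological coefficient of variation was 0.112 against 0.0710. In that last fit 2 cardiac sarcomere genes, 1 cardiac transcription factor, 1 globin and no member of the endothelial, surface epithelium or neuronal lists were called.

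**Figure D1:**
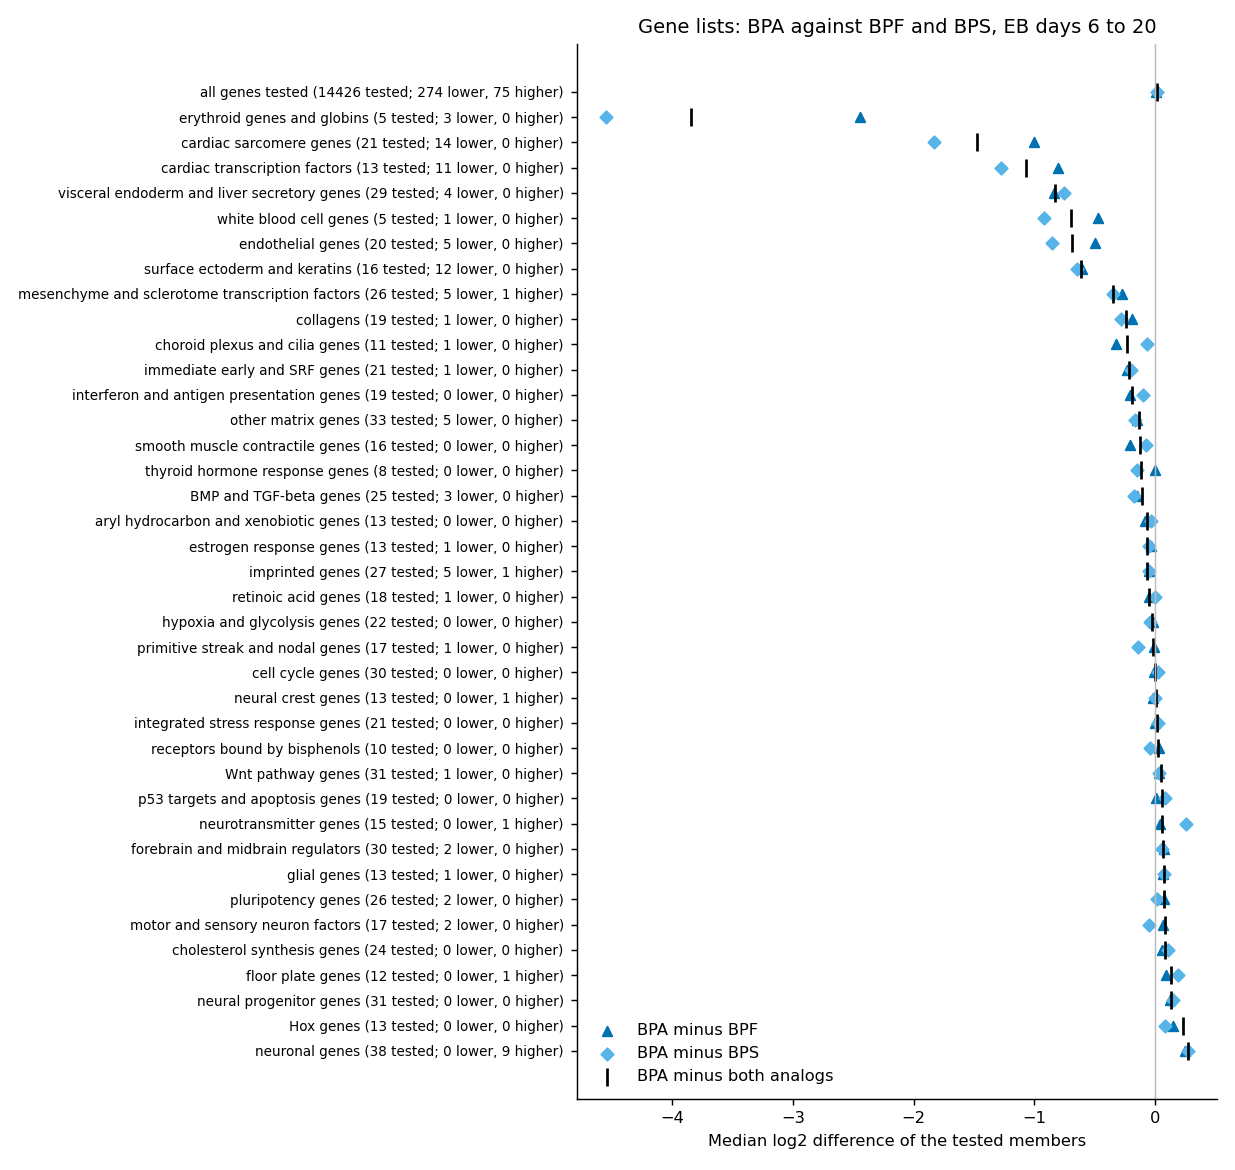
Median log2 difference (x axis) of the tested members of each gene list (y axis, with counts tested, lower and higher in BPA): black bars give BPA minus both analogs, triangles BPA minus BPF and diamonds BPA minus BPS, over EB days 6, 9, 12 and 20. Globins and heart muscle lists lie farthest left, with medians of -3.84 and -1.47 for BPA minus both analogs, and neuronal genes lie to the right at 0.27.

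Heart muscle genes showed the most members called. Of 21 tested members of the cardiac sarcomere list, 14 were lower in BPA and 0 higher (median log2 difference -1.47, against 0.01 over all genes). Tnni1 encodes the troponin I of slow and embryonic heart muscle (chromosome 1, 135783033 to 135810989, GRCm38). Its levels on days 6, 9, 12 and 20 were 0.72, 6.34, 7.67 and 3.56 FPKM (fragments scaled to transcript length and library size) with BPA. They were 2.14, 21.8, 25.85 and 14.09 FPKM with BPF, and 2.6, 32.71, 48.04 and 17.85 FPKM with BPS. DMSO gave 0.78, 3.2, 0.58 and 1.86 FPKM. BPA lay below both analogs on each of the 4 days, and above DMSO on all days but day 6. The log2 difference was -2.16 ± 0.20 (SE; 95% interval -2.58 to -1.74, adjusted p = 9.3e-05). Myl7 (chromosome 11, 5896637 to 5898782) reached 15.68 FPKM with BPA on day 12, against 59.57 with BPF, 141 with BPS and 1.55 with DMSO. Over the 4 days it was lower by a log2 difference of -2.65 ± 0.39 (adjusted p = 0.0025), again on every day. Tnnt2 and Actn2, the heart's troponin T and the actinin of the Z disc, had log2 differences of -2.38 ± 0.36 and -1.84 ± 0.28 (adjusted p = 0.0029 and 0.0033). Tnnt2 on day 6 was 0.97 FPKM with BPA against 0.4 and 0.82 with BPF and BPS, so that day ran the other way. The median over the list was -0.03 on day 6, -1.49 on day 9, -2.03 on day 12 and -1.54 on day 20. Members that did not pass for BPA against both analogs included Myh7, the slow myosin heavy chain (-0.99), and Ryr2, the calcium release channel (-0.86). Without the BPA library of day 12, 3 members were called, and without that of day 9, 9 members. In the fit by compound, 18 of the 21 members were called between BPA and BPS and 8 between BPA and BPF.

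Transcription factors of heart development went the same way. Of 13 tested members, 11 were lower in BPA and 0 higher (median -1.07). Hand1, a bHLH factor of early heart and extraembryonic mesoderm, was at 0.92, 4.97, 3.91 and 0.49 FPKM with BPA over the 4 days. It was at 4.58, 16.6, 8.09 and 1.44 FPKM with BPF and at 6.83, 20.64, 13.49 and 0.92 FPKM with BPS. BPA was below both analogs on each day, and DMSO, at 0.93, 2.15, 0.57 and 0.06 FPKM, was below BPA from day 9 on. The difference was -1.83 ± 0.20 (adjusted p = 0.00037). Tbx20, a T-box factor of the heart tube, differed by -1.58 ± 0.16 (adjusted p = 0.00024). Gata6 and Gata4, zinc finger factors of heart and endoderm, differed by -1.24 ± 0.16 and -1.07 ± 0.15 (adjusted p = 0.0012 and 0.0015). On day 6 the median difference of the list was -1.15, when that of the sarcomere genes was near 0. Within the sarcomere list Tnni1 differed by -1.67 on that day, and Tnnt2 ran the other way. Day 6 had 1 library per compound, and an order in time between the lists was not tested. Nkx2-5, Hand2, Tbx5, Mef2c, Isl1, Myocd and Smyd1 were also lower, and Gata5 (-0.95) and Tbx2 (-0.86) did not pass. Without the BPA library of day 9 or that of day 12, 4 members were called in each case.

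**Figure D2:**
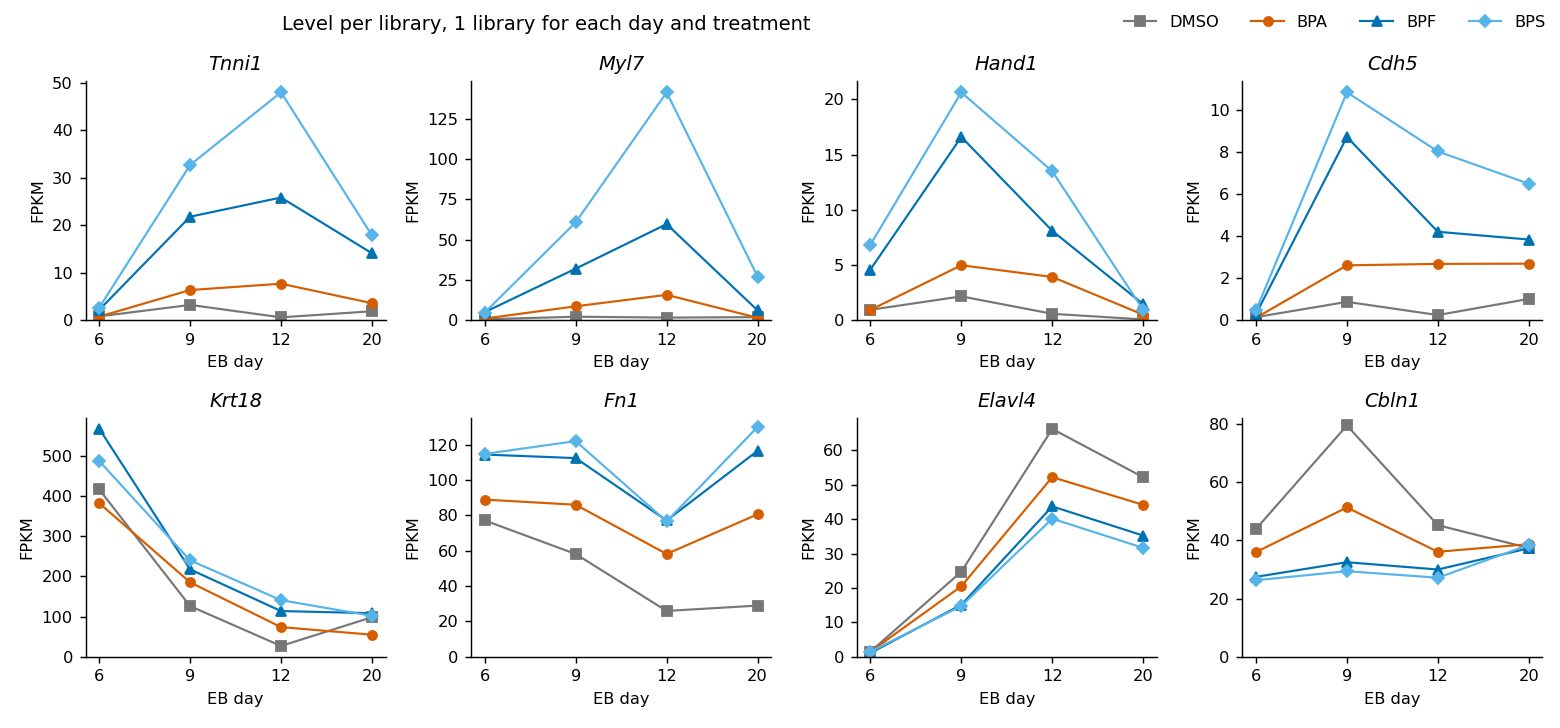
FPKM (y axis, linear, from 0) against EB day (x axis) for 8 genes, with 1 point per library and no error bars: squares DMSO, circles BPA, triangles BPF, diamonds BPS. For Tnni1, Myl7, Hand1, Cdh5 and Fn1 the BPA points lie below both analogs on all 4 days, and for Elavl4 they lie above them from day 9 on.

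Globins gave the widest differences. Of the 18 globin and erythroid genes, 5 passed the filter on low counts and 3 were lower. The filter asked for 1 CPM in at least 4 of the 12 libraries. Erythroid marker levels were highest in the BPF and BPS libraries of days 9 and 12. Some globins could thus have entered the test through the analogs alone, and the size of their differences is a description. Hbb-bh1, an embryonic beta-type globin, was at 2.06 FPKM with BPA on day 9 against 8.42 with BPF and 35.48 with BPS. On day 12 it was at 1.5, 19.87 and 67.46 FPKM, and on days 6 and 20 it was under 1 FPKM in every treatment. With DMSO it was at 0.16 FPKM on day 9 and 0.68 on day 12. The difference was -4.04 ± 0.66 (adjusted p = 0.0055), and it rested on those 2 days. The alpha-type globins Hba-x and Hba-a1 differed by -3.84 ± 0.92 and -4.58 ± 0.89 (adjusted p = 0.043 and 0.014), and reads of Hba-a1 could be divided with its near-identical copy. Tal1, a blood regulator, did not pass (0.23), nor did Epor, the erythropoietin receptor (-0.68). DESeq2 called 1 of the 3 and limma 0, and at a filter of 5 CPM 0 were called. Without the BPA library of day 12 none of the 3 was called, and 1 was called without any one of the BPF or BPS libraries of days 9 and 12. In each of the latter fits 126 results of named genes were tested, against 128 without the BPA library of day 12. A globin could thus have dropped out at the filter there instead of losing its call. The summed level of 5 fixed erythroid markers ran from 0.26 to 3.99 FPKM in BPA, from 0.33 to 38.38 in BPF, from 0.16 to 141 in BPS and from 0.05 to 1.27 in DMSO.

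Endothelial genes, those of vessel lining, all had an estimate below 0 (20 of 20, median -0.68), and 5 of them passed. Cdh5, the cadherin of endothelial junctions, was at 0.11, 2.61, 2.68 and 2.69 FPKM with BPA. BPF gave 0.29, 8.73, 4.21 and 3.84 FPKM and BPS 0.46, 10.86, 8.04 and 6.5 FPKM, with DMSO at 0.14, 0.87, 0.24 and 1.01. BPA lay below both analogs on all 4 days and above DMSO from day 9 on, and the difference was -1.37 ± 0.22 (adjusted p = 0.0041). Flt1, a receptor for vascular endothelial growth factor, differed by -0.54 ± 0.09 (adjusted p = 0.0063). Tie1 and Tek, the receptors of the angiopoietin pathway, were also lower, as was Sox17. Kdr (-0.84) and Pecam1 (-0.46) did not pass. The count was 2 without the BPA library of day 9, 3 without that of day 12 and 3 without the BPS library of day 20. Markers of smooth muscle showed no call for BPA against both analogs. Of 16 contractile genes, 4 had an unadjusted p under 0.05 by edgeR, against 2239 of all 14426 genes tested. Of the 16 contractile genes, 0 passed by edgeR, DESeq2 or limma, and the median was -0.12. Against BPS alone 1 of them passed by edgeR, Synpo2, an actin-binding protein (-1.02 ± 0.23, adjusted p = 0.047). Acta2, smooth muscle actin, differed by -0.19 (95% interval -0.50 to 0.13, adjusted p = 0.60).

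Genes of surface epithelium were lower as well. Of 16 tested members, 12 were lower in BPA and 0 higher (median -0.61), and the count was between 8 and 14 when any 1 library was left out. Krt18, a keratin of simple epithelia, was at 382, 185, 73.84 and 54.96 FPKM with BPA over the 4 days. BPF gave 568, 218, 114 and 109 FPKM, and BPS 487, 240, 141 and 102 FPKM. BPA was below both analogs on each day, while DMSO (417, 126, 26.92 and 98.5 FPKM) was above BPA on days 6 and 20 and below it on days 9 and 12. The difference was -0.60 ± 0.08 (adjusted p = 0.0021). Its partner Krt8 differed by -0.65 ± 0.10 (adjusted p = 0.0026). Epcam and Cdh1, adhesion molecules of epithelia, differed by -0.60 ± 0.08 and -0.58 ± 0.07 (adjusted p = 0.0011 for each). Esrp1, a splicing factor of epithelia, differed by -0.81 ± 0.11 (adjusted p = 0.0011). Claudins Cldn4, Cldn6 and Cldn7 and the basal factor Trp63 were lower too, and Grhl3 (0.07) and Tfap2c (-0.35) did not pass. Cdh1 and Epcam are also expressed in pluripotent cells; of 26 pluripotency genes, 2 were lower, Dnmt3b and Tbx3, and the summed level of 5 pluripotency markers on days 6, 9, 12 and 20 was 167, 45.04, 35.56 and 76.31 FPKM in BPA. It was 178, 47.41, 28.34 and 60.12 FPKM in BPF and 168, 39.57, 28.5 and 54.14 FPKM in BPS, so on days 12 and 20 it was higher with BPA than with either analog. Plet1, a surface protein of epithelial and trophoblast progenitors, differed by -1.29 ± 0.15 (adjusted p = 0.00044). Upk1b, a uroplakin of urothelium, was under 1.5 FPKM until day 12 and then at 5.47 FPKM with BPA on day 20, against 16.55 and 15.87 FPKM with BPF and BPS.

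Most members of the matrix, signalling, mesenchyme and imprinted lists did not pass, though each list held a larger share of calls than all genes (2.42%). Fn1, which encodes the matrix protein fibronectin, was at 88.87, 85.97, 58.13 and 80.57 FPKM with BPA. BPF gave 114, 112, 77.08 and 116 FPKM, BPS 115, 122, 76.52 and 130 FPKM, and DMSO 77.08, 58.11, 25.92 and 28.95 FPKM. On each day the order was DMSO, then BPA, then both analogs, and the difference was -0.45 ± 0.05 (adjusted p = 0.00037). Of 33 other matrix genes tested, Fn1 included, 5 were lower (Fn1, Sparc, Fbn2, Nid2 and Lamb1), with a median of -0.13. That count was 10 without the BPA library of day 6 and 2 without the BPA library of day 9, 12 or 20. It was 2 or 3 without the BPF library of day 6 or 12 or the BPS library of day 9 or 12. Tgfb1, the ligand TGF-beta 1, was lower by -0.71 ± 0.08 (adjusted p = 0.00044), as were Bambi and Smad6, inhibitors of this pathway, and the other 22 of 25 tested BMP and TGF-beta genes did not pass. Without the BPA library of day 12, 1 of the 3 was called. Cyp26a1, which breaks down retinoic acid, differed by -0.72 ± 0.09 (adjusted p = 0.00062) and was the 1 called member of 18 retinoic acid genes. Of 26 mesenchyme and sclerotome factors, 5 were lower (Pax1, Pax9, Foxc2, Prrx1 and Alx1) and 1 higher (Msx1), with 0 called without the BPA library of day 12. The count was 2 or 3 without the BPA or BPS library of day 9 or the BPF library of day 6 or 12. Among 27 imprinted genes, H19, Igf2, Peg3, Peg10 and Igf2r were lower by log2 differences of 0.35 to 0.42, Mkrn3 was higher, and 1 call was left without the BPA library of day 12.

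Visceral endoderm and liver secretory genes had a low median (-0.83) with 4 of 29 members lower, among them Gata4, Cer1 and Sox17. Against DMSO the list had a median log2 difference of -0.14 with BPA and 0.74 with the analogs. BPA was the middle value in 8 of the 29 members, against 53.2% of all genes tested. The secreted products of this list varied between single libraries. Afp, alpha-fetoprotein, was at 4.82 FPKM on day 12 with BPA against 63.18 with BPF and 149 with BPS. On day 20 it was at 8.17, 110 and 6.93 FPKM. The Afp difference of -1.96 ± 0.77 did not pass (adjusted p = 0.22). Without the BPS library of day 9, 9 members were called, and 2 without the BPA library of day 6 or 20 or the BPF library of day 6.

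Among the lists, that of neuronal genes held the most members higher in BPA: 9 of 38 tested members were higher and 0 lower, and 37 of 38 had an estimate above 0 (median 0.27). Elavl4, an RNA-binding protein of neurons, was at 1.46, 20.48, 52.19 and 44.13 FPKM with BPA. BPF gave 1.09, 15.1, 43.69 and 35.21 FPKM, BPS 1.48, 14.75, 40.12 and 31.65 FPKM, and DMSO 1.5, 24.71, 66.19 and 52.17 FPKM. From day 9 on, BPA lay above both analogs and below DMSO. The difference was 0.38 ± 0.06 (95% interval 0.26 to 0.50, adjusted p = 0.0026). Gap43, a growth cone protein, Dcx, the microtubule protein doublecortin, and Scg3, a secretogranin, were higher by 0.28 ± 0.05, 0.36 ± 0.06 and 0.32 ± 0.06 (adjusted p = 0.0064, 0.0072 and 0.0099). Map2, Snap25, Stmn4, Neurod1 and Celf3 were higher too, and Tubb3 (0.26) and Rbfox3 (0.28) did not pass. Outside the list, Kif5c, a kinesin of axonal transport, and Svop, a synaptic vesicle protein, were higher by 0.22 ± 0.04 and 0.32 ± 0.06 (adjusted p = 0.011 and 0.012). Lfng and Dtx4, which act on Notch signalling, were higher by 0.34 ± 0.06 and 0.25 ± 0.04 (adjusted p = 0.0092 and 0.0074). Cbln1, a synaptic organiser, was at 36.0, 51.31, 36.09 and 38.71 FPKM with BPA. BPF gave 27.47, 32.5, 29.99 and 37.3 FPKM and BPS 26.32, 29.41, 27.18 and 38.44 FPKM. The Cbln1 gap of days 6 to 12 was near 0 on day 20 (daily log2 difference 0.03), and over the days it was 0.39 ± 0.08 (adjusted p = 0.015). Fgfbp3, Tmem132c and Zfp811 completed the 12 higher genes with the smallest p. The neuronal count was 2 without the BPA library of day 12 and 5 without that of day 9. Neural progenitor genes gave 0 calls among 31 by edgeR (median 0.13), 1 by DESeq2 and 0 by limma. Of the 31, 7 had an unadjusted p under 0.05 by edgeR, against 2239 of all 14426 genes tested. Glial genes gave 1 call among 13, Pdgfra, which was lower. The summed level of 5 neuron markers was 513, 423 and 418 FPKM with BPA, BPF and BPS on day 12, and 617 with DMSO.

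Receptors that bisphenols can bind and the pathways they are studied for gave 1 call by edgeR, in the estrogen response list. The share called over all genes was 2.42%. Estimates of the 10 receptors tested ran from -0.51 to 0.13, and a missing call does not show equal levels. Of 16 receptors listed, 10 passed the filter and 0 of them the test by edgeR, DESeq2 or limma, with 2 at an unadjusted p under 0.05; among those that did not pass the filter were Esr1 and Pparg. Esr2, estrogen receptor beta, was at 0.12 to 0.51 FPKM in the BPA libraries and differed by 0.10 (95% interval -0.51 to 0.71). Esrra, Esrrb and Esrrg, the estrogen-related receptors, differed by 0.04 (-0.18 to 0.26), 0.05 (-0.25 to 0.36) and 0.09 (-0.34 to 0.51). Ahr, the dioxin receptor, had the smallest p of them (-0.31, interval -0.51 to -0.11, adjusted p = 0.095). Pgr and Thrb were under 1 FPKM throughout, and Thra (0.13, interval 0.02 to 0.24) and Nr3c1 (0.01, interval -0.14 to 0.17) did not pass either. Of 13 tested estrogen response genes, 1 was lower, Igfbp4, a binding protein of insulin-like growth factors (-0.37 ± 0.07, adjusted p = 0.014). None passed by edgeR among 13 aryl hydrocarbon and xenobiotic genes, 8 thyroid hormone response genes, 30 cell cycle genes, 24 cholesterol synthesis genes, 21 integrated stress response genes and 19 p53 and apoptosis genes. In these 6 lists together 11 genes had an unadjusted p under 0.05, and DESeq2 called 1 and limma 0. Over all genes tested, 2239 of 14426 had an unadjusted p under 0.05 by edgeR.

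The place of BPA between the solvent and the analogs was read from mean levels. For 240 of the 274 lower genes (87.6%) the mean log2 level in BPA fell between those in DMSO and in the analogs, and for 34 genes DMSO was the middle value. Over all tested genes BPA was the middle value in 53.2%. The lower genes were chosen for their gap between BPA and the analogs, and the analog libraries enter both differences, so these shares are a description and their contrast with all genes shows nothing further. The lower genes stood at a median of 0.38 (BPA) and 1.02 (analogs) above DMSO on the log2 scale. Where the analogs were at least 0.5 from DMSO, BPA had covered a median of 44.3% of their distance for the lower genes (n = 236), a share that their choice by this gap makes small. For the 75 higher genes BPA was in the middle for 46 (61.3%), DMSO for 21 and the analogs for 8. Gata4 was one of the lower genes with DMSO in the middle: on day 20 its levels were 23.43 FPKM with DMSO, 13.83 with BPA, 20.18 with BPF and 27.86 with BPS.

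**Figure D3:**
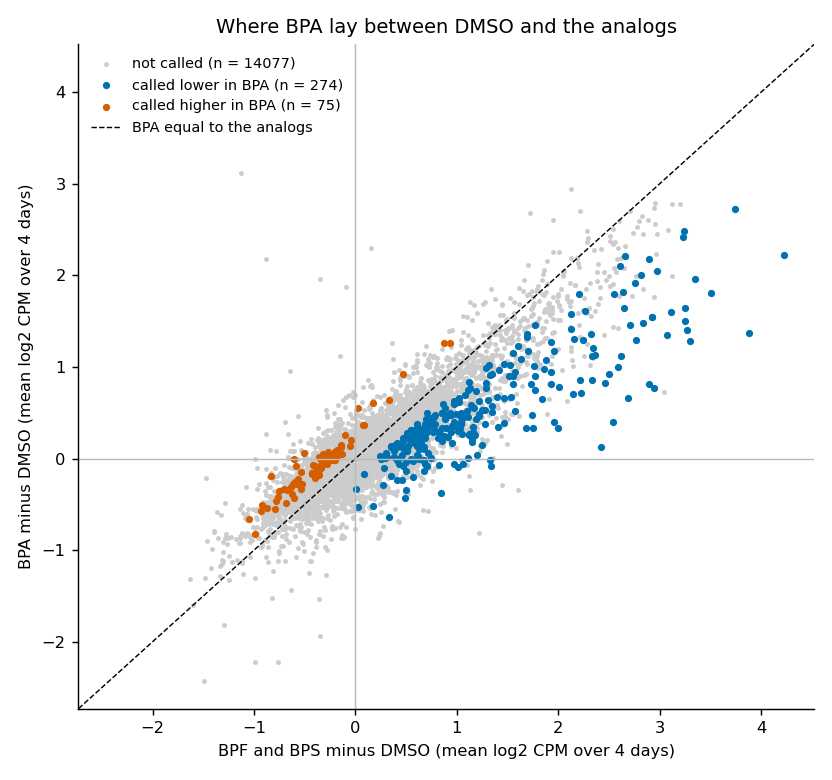
Mean log2 CPM difference from DMSO over 4 days, for BPF and BPS (x axis) and for BPA (y axis), with 1 point per tested gene: blue called lower in BPA, orange called higher, grey neither. Most blue points (240 of 274) lie between the horizontal line at 0, where BPA equals DMSO, and the dashed line, where BPA equals the analogs.

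The 3 pairs of compounds were compared at 1 dose and on the same days, in 1 fit of all 3 compounds. BPA and BPS differed in 253 genes (1.75%; 33 higher and 220 lower in BPA), BPA and BPF in 82 (0.568%; 9 higher and 73 lower), and BPF and BPS in 14 (0.0970%; 1 higher and 13 lower in BPF). These p-values were adjusted over all genes and the 3 pairs. When each pair was fitted alone, the counts were 150 for BPA and BPS, 156 for BPA and BPF and 41 for BPF and BPS, so the order of the first 2 counts turned; a difference between pairs was not tested. Of the BPA and BPF calls, 67 were also BPA and BPS calls (81.7% of 82 and 26.5% of 253), and both pairs share the BPA libraries. In several heart muscle and globin genes the level was lowest with BPA, higher with BPF and highest with BPS. A link of this order to the bridge of each compound was not tested. Tnni1 was lower in BPA than in BPF by -1.82 ± 0.13 (adjusted p = 3.1e-06) and lower than in BPS by -2.43 ± 0.12 (adjusted p = 1.1e-07), and lower in BPF than in BPS by -0.61 ± 0.11 (adjusted p = 0.011). Myl7, Hbb-bh1, Myh6, Ttn and Hba-a1 passed in all 3 pairs with the same order. For Myl7 BPF was lower than BPS by -1.17 ± 0.18 (adjusted p = 0.0057), and for Hbb-bh1 by -1.85 ± 0.22 (adjusted p = 0.00074). Ttn, giant titin, reached at most 0.22 FPKM. Hba-x, Bnc1, Angptl7, Gkn2, Tmem254c, Epas1 and Hspb7 were lower in BPF than in BPS as well as in BPA than in BPS, without passing between BPA and BPF. Reads of Tmem254c could be divided with near-identical copies. Emp1, a membrane protein of epithelia, was higher in BPF than in BPS by 0.30 ± 0.07 (adjusted p = 0.0498).

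Other genes showed no call between the analogs, which does not show that the analogs act alike. For Krt18 the BPF minus BPS difference was -0.03 (95% interval -0.24 to 0.18), while BPA was below BPF by -0.58 ± 0.10 and below BPS by -0.61 ± 0.10 (adjusted p = 0.0093 and 0.0067). For Epcam it was -0.03 (-0.22 to 0.16), for Fn1 -0.08 (-0.19 to 0.04) and for Dtx4 0.00 (-0.11 to 0.12). Hand1 (-0.42, -0.78 to -0.07) and Tbx20 (-0.37, -0.65 to -0.09) had intervals below 0 without passing after adjustment (adjusted p = 0.35 and 0.29). Higher in BPA than in BPS were Vtn, vitronectin (0.61 ± 0.08, adjusted p = 0.0025), and Sim2 and Dmrta2, transcription factors of the nervous system (0.73 ± 0.12 and 0.47 ± 0.08, adjusted p = 0.0066 and 0.0088). Rtn1, a reticulon of neurons, and Epha10, an ephrin receptor, were higher in BPA than in BPF by 0.33 ± 0.07 and 0.61 ± 0.13 (adjusted p = 0.027 and 0.039). BPS had a higher mean level than BPF in 226 of the 274 lower genes (82.5%), against 48.1% of all genes. These genes were chosen from the same BPF and BPS libraries and are not independent of each other. The share is thus a description, and its contrast with all genes shows nothing further. The pair counts changed with single libraries: BPA and BPF fell to 22 and BPA and BPS to 76 without the BPA library of day 12, and BPF and BPS ran from 5 to 38.

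**Figure D4:**
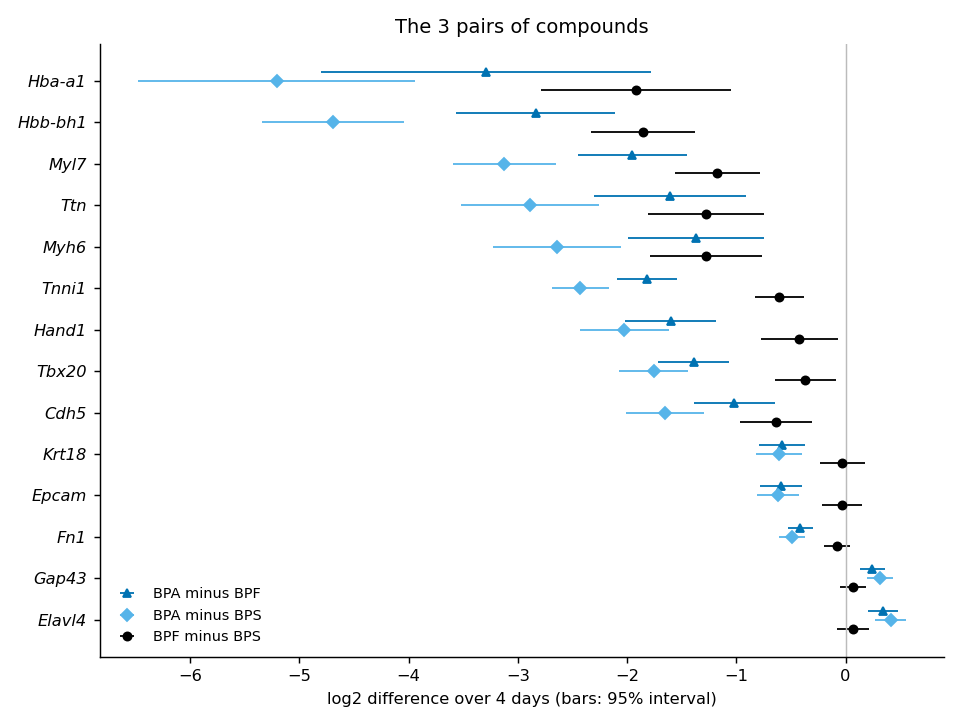
Log2 difference over 4 days (x axis) with its 95% interval for 14 genes (y axis): triangles BPA minus BPF, diamonds BPA minus BPS, circles BPF minus BPS. Circles of the globins and sarcomere genes lie left of 0 (Hbb-bh1 at -1.85), and those of Krt18, Epcam and Fn1 have intervals that include 0.

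Late days were set against early days to see whether the gap between BPA and the analogs changed with time. The interaction of days 12 and 20 against days 6 and 9 gave 0 calls by edgeR (0%), 6 by DESeq2 and 0 by limma. By edgeR 878 of the 14426 genes tested had an unadjusted p under 0.05. The smallest adjusted p was 0.054 for Lhx1, a factor of node, kidney and neurons. On day 6 Lhx1 was at 4.56 FPKM with BPA against 12.54 and 11.28 with BPF and BPS, and on day 20 at 12.3 against 9.39 and 9.69. Without the BPA library of day 9, 16 genes were called. Per day, the lower genes had medians of -0.42, -0.53, -0.73 and -0.54 on days 6, 9, 12 and 20, and 208 of 274 were below both analogs on all 4 days. Of the 75 higher genes, 51 were above both analogs on all 4 days. These days chose the genes, so the medians and counts are a description.

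**Figure D5:**
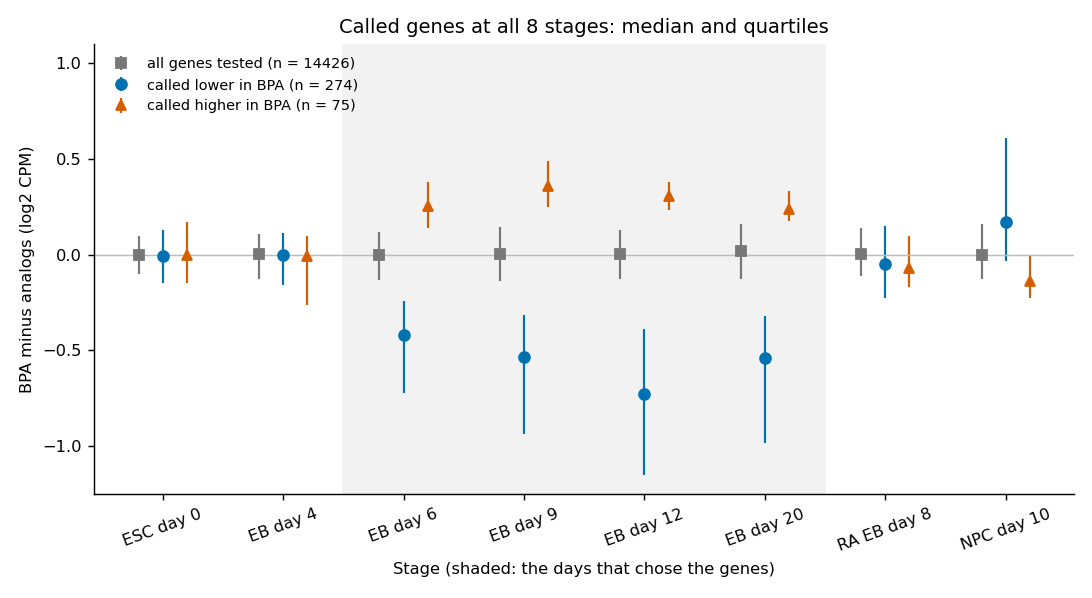
BPA minus the mean of BPF and BPS in log2 CPM (y axis) at each of the 8 stages (x axis): points are medians and bars quartiles over all tested genes (squares), genes called lower (circles) and genes called higher (triangles). Shaded days chose the genes. In neural progenitor cultures (NPC day 10) the medians of the called genes lie on the other side of 0, at 0.17 and -0.14.

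Stages that the fit did not use were read for the same genes with no test, at 1 library per treatment. In stem cells (day 0) and EBs of day 4 BPA was below the mean of the analogs in 52.6% and 52.9% of the 274 lower genes. These shares were close to those of all genes (51.2% and 49.2%). Genes at 0 FPKM in every treatment of a stage, such as Hbb-bh1 on days 0 and 4, enter the shares. Rounding in the computation can count their difference of 0 as below, and the median of the lower genes on day 4 was 0. In EBs of day 8 given retinoic acid the share was 55.8%, against 49.0% of all genes, and 66.7% of the higher genes were below the analogs there. In neural progenitor cultures of day 10 the share of the lower genes was 28.8%, against 49.7% of all genes, with a median of 0.17. BPA was thus mostly above the mean of BPF and BPS there, which does not place it above each analog. Cdh1 was at 6.39 FPKM with BPA in those cultures against 4.32 and 5.67 with BPF and BPS, and 12.27 with DMSO. Fn1 was at 31.74 FPKM with BPA, 19.01 with BPF and 32.02 with BPS, so BPA was above BPF only, and at 80.32 with DMSO. Higher genes were below the analogs in 76% in the same cultures. Gap43 was at 480 FPKM with BPA, 624 with BPF, 564 with BPS and 484 with DMSO.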

How the data were processed

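Total RNA of each culture was purified with Trizol and a column kit and sequenced at BGI, per the labels. The authors deposited expected counts per gene without normalisation, and FPKM values computed from them. Tools listed in the submitters' processing notes are HISAT, Bowtie2 and RSEM, and the build is mm10; versions and roles are not given in the sources used here. Genes under 0.01 FPKM were not listed and were set to 0. The 12 libraries held 9752964 to 10940376 expected counts and 16599 to 17839 genes each, and the DMSO libraries no fewer than 9574833.

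Expected counts were rounded and tested with edgeR 4.0.16 in R 4.3.3 on genes with 1 CPM or more in at least 4 of the 12 libraries (TMM factors 0.938 to 1.064). The model had terms for day and for BPA (7 residual degrees of freedom), or for day and compound (6). DESeq2 1.42.0 and limma 3.58.1 (trend, log2(FPKM + 1)) were alternatives, and the code was tested on simulated data. SEs come from the F value. Comparison, gene lists and alternatives were chosen with earlier results of these data known. Named genes were the 12 lower and 12 higher with the smallest p and a mean of 1 FPKM or more, 5 and 5 per pair, and up to 4 per list, or the 2 with the smallest p; receptors were named in any case, except that a few genes are not reported here. A few list members with larger p were named after their values were seen.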

Additional observations from a re-analysis of the deposited data

Results flagged for a closer look

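Among the 24 genes named for BPA against both analogs, the 4 daily differences were screened for a day far from the other 3, which chance alone flags in about 1 in 20 groups. Dcx stood out on day 6 with a log2 difference of 1.29, where its levels were 0.06 FPKM with BPA and 0.01 and 0.03 FPKM with BPF and BPS. Svop stood out on day 9 with 0.52, against 0.25 to 0.27 on the other days. Tnni1 stood out on day 6 with -1.67, the smallest of its 4 differences, against -2.09 to -2.18 on the other days.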

How the results depend on the processing

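The 349 genes called for BPA against both analogs became 111 by limma, 5 with DMSO in the fit, 54 over all 8 stages, 167, 111 and 185 without day 9, 12 or 20, and 61 at an absolute log2 difference of 1. Leaving out 1 library gave 70 to 427. BPA against BPF (82) became 163 without the filter, 12 by limma, 0 with DMSO, 7 over 8 stages, 18 and 40 without day 12 or 20, 19 at a log2 of 1 and 156 in a fit of that pair alone, and 22 to 129 with 1 library out. BPA against BPS (253) became 395 without the filter, 38 by limma, 6 with DMSO, 56 over 8 stages, 122 and 34 without day 9 or 12, 81 at a log2 of 1 and 150 in its own fit, and 76 to 333. BPF against BPS (14) became 39 without the filter, 6 at 5 CPM, 1 by limma, 0 with DMSO, 1 over 8 stages, 33 and 2 without day 6 or 12, 41 in its own fit, and 5 to 38. The late interaction (0) became 1 with upper-quartile factors or no filter, 6 by DESeq2, 2 as a linear trend, and 0 to 16. The share with BPA in the middle (87.6%) became 100% with DMSO, where 5 genes were called, and 91.5% over 8 stages. With 1 library out it was 82.2% to 91.9%. Each gene kept its position from the main levels, so only the set of lower genes changed and the position itself was not computed anew. The cause of these shifts was not tested. No named gene that passed a test changed direction in any alternative, and of the 24 genes named for the main comparison Tnni1 and Hand1 kept their call in all 25 alternatives; adding DMSO ended 84 of the 91 calls of single genes. Libraries of the same day are matched by the day block of the fits, and no pairing beyond the day was possible because the labels give no replicate numbers. The design holds no replicate of a day and treatment, and genes of a few counts rest on counting error.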
